A study of Mus musculus with 6 samples.

Results

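The spiral ligament is the connective tissue that anchors the lateral wall of the cochlea. Here 10 genes of its fibrocytes and of cells beside them were followed in Pjvk-/- and Pjvk+/+ mice. The 10 genes were Coch, Otos, Otor, Emilin2, Cemip, Pou3f4, Tbx18, Car3, Slc26a4 and Slc4a11, chosen as genes of fibrocytes, of otic mesenchyme and of anion transport in the lateral wall. For brevity all 10 are called fibrocyte genes below. Each had 1 probe set that the platform annotation pairs with its symbol alone, so all 10 entered the fit, among 19938 genes. The study profiled total RNA from dissected organ of Corti at postnatal day 15 on Affymetrix mouse gene ST arrays, with 3 samples of Pjvk-/- mice and 3 of Pjvk+/+ mice, both on a mixed C57BL/6J-129/Sv background. Pjvk encodes pejvakin, a gasdermin family protein whose loss causes deafness. Both genotypes were dissected at the same age, no sound exposure or other treatment is given in the labels of these samples, and the labels do not say how the null allele was made, whether a sample pooled animals or whether the samples came from separate animals. The p-values therefore rest on the variation between these 6 RNA samples, part of which may be technical.

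Fibrocytes of the spiral ligament form a syncytium joined by gap junctions that takes potassium from the sensory epithelium back towards the stria vascularis, the tissue that makes endolymph. They also lay down the matrix that holds the lateral wall under tension, and related fibrocytes fill the spiral limbus beside the organ of Corti. Several of the genes are known from hereditary deafness, among them Coch, Pou3f4 and Slc26a4. Pendrin, the product of Slc26a4, is made by epithelial cells next to the ligament, and not by fibrocytes themselves.

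The bases just before the annotated transcription start of 5 of the genes are shown because they separate the genes by a core promoter element. Each line runs 5′ to 3′ over the 60 bases before the start, from RefSeq on GRCm38.p6, and capitals mark TATAAA, the TATA box motif.
Otor, chr2:143078333-143078392, plus strand: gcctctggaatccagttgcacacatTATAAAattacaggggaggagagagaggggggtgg
Slc26a4, chr12:31559985-31560044, minus strand: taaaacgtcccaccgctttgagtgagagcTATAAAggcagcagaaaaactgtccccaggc
Cemip, chr7:84086506-84086565, minus strand: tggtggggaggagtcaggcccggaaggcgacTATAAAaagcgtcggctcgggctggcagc
Otos, chr1:92648842-92648901, minus strand: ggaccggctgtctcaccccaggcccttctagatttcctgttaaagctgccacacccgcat
Coch, chr12:51593281-51593340, plus strand: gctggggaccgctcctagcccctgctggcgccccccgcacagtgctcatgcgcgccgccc

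The promoter table held 9 windows for 8 of the 10 genes. Over the 250 bases before the start and on both strands, TATAAA or its complement TTTATA was found for Otor, Slc26a4 and Cemip, or 3 of 9 windows, and in 12.4% of all 32851 windows. Searched on both strands in the same way, the octamer motif ATGCAAAT of POU factors (in 1.60% of all windows), the T-box motif TCACACCT (1.12%) and the forkhead motif GTAAACA (3.17%) were in none of the 9 windows. The 3 genes with TATAAA did not share a pattern over the arrays, as their values below show.

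The deposited values are log2 signals, so that a difference of 1 is a 2-fold difference, and signals of different probe sets are not compared. Array medians lay between 6.66 and 6.69. The probe set of the targeted gene Pjvk read 4.42, 4.36 and 4.21 in Pjvk-/- arrays, against 4.75, 5.06 and 4.96 in Pjvk+/+ arrays, a difference of -0.59 (standard error, SE, 0.09) with an adjusted p of 0.105 in limma. All Pjvk-/- signals were below all Pjvk+/+ signals. The difference passed with an intensity trend and robust priors (adjusted p = 0.0207), and where the probes lie in the altered gene is not known here. The Y-linked level, the mean log2 signal of 3 Y-linked genes, was 7.39 to 7.58 in Pjvk-/- arrays and 7.65 to 8.05 in Pjvk+/+ arrays, with no overlap between the genotypes. All 10 fibrocyte genes stayed in the fits that dropped dim genes, at the 25th percentile and at the median of mean signal. Pjvk, at percentile 11.3 of mean signal, dropped out of both fits, so its difference comes from a dim probe set. The 10 fibrocyte genes ran from percentile 60.2 of mean signal (Slc26a4) to percentile 99.9 (Coch), and the table holds no detection calls. How much ligament or limbus tissue the dissection labelled organ of Corti carried was not tested.

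The genotypes were compared to ask whether fibrocyte genes differ when pejvakin is missing. None of the 10 genes passed the test at an adjusted p under 0.05 (limma over all genes, Benjamini-Hochberg), where 7 of 19938 genes passed (0.0351%). All 10 had a lower mean in Pjvk-/- than in Pjvk+/+ arrays, but Cemip, Emilin2 and Tbx18 turned above 0 under cyclic loess and Tbx18 also under quantile normalization. Among all genes 53.9% had a lower mean. The median log2 difference of the 10 genes was -0.12, against -0.01 for all genes. Among genes at or above the median signal, where all 10 lie, the median was -0.04. In none of the 10 genes did the groups separate, while they separated in 17.8% of all genes. At an unadjusted p under 0.05 stood 1 of the 10, Slc26a4, and 12.4% of all genes. In bulk tissue, fewer cells of a type and less RNA per cell cannot be told apart, which holds for every difference below.

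**Figure D1:**
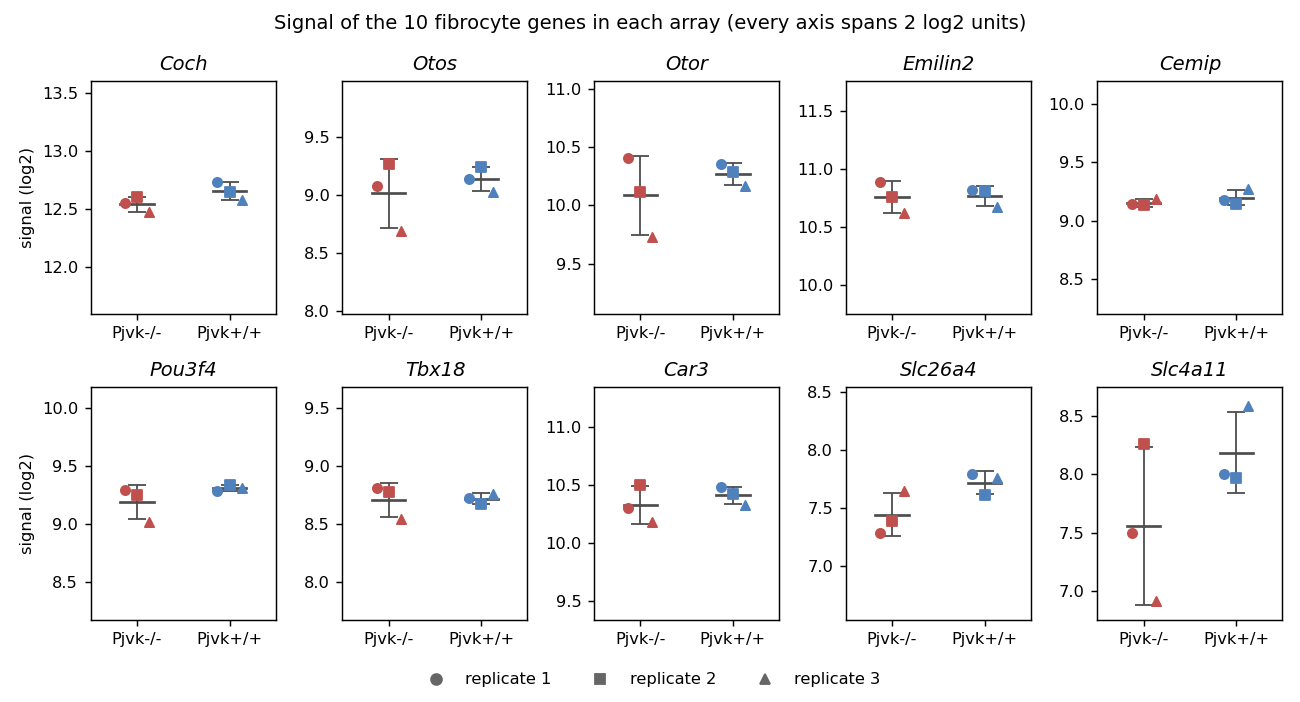
Log2 signal of each of the 10 genes (vertical axis) in the 3 Pjvk-/- arrays (left, red) and the 3 Pjvk+/+ arrays (right, blue), with symbols for the replicates and bars for the mean ± SD. The groups overlap in every panel, and the triangle of Pjvk-/- replicate 3 is the lowest point in 8 of the 10 panels.

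Among the secreted proteins of fibrocytes, Coch encodes cochlin, an abundant matrix protein of the spiral ligament (probe set 10395659). It read 12.55, 12.60 and 12.47 in Pjvk-/- arrays, against 12.73, 12.65 and 12.58 in Pjvk+/+ arrays. The Pjvk-/- arrays lay low, and the groups overlapped only between 12.58 and 12.60. The difference was -0.11 with a 95% interval from -0.26 to 0.03 (adjusted p = 0.484), and it was -0.08 without Pjvk-/- replicate 3.

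Otos encodes otospiralin, a small secreted protein of ligament and limbus fibrocytes (probe set 10356681). Its signals were 9.08, 9.27 and 8.69 in Pjvk-/- arrays and 9.14, 9.24 and 9.03 in Pjvk+/+ arrays. One Pjvk-/- array, replicate 3, was low by 0.34 against the next array, and the other Pjvk-/- values lay within the Pjvk+/+ range or just above it. The difference of -0.12 (interval -0.43 to 0.18, adjusted p = 0.716) became 0.04 without that array.

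Otor encodes otoraplin, a secreted relative of the cartilage protein MIA, also called fibrocyte-derived protein (probe set 10476628). It gave 10.41, 10.12 and 9.73 in Pjvk-/- arrays, against 10.36, 10.29 and 10.17 in Pjvk+/+ arrays. Both the highest and the lowest of the 6 signals belonged to Pjvk-/- samples, with replicate 3 again at the bottom. The difference of -0.19 (interval -0.52 to 0.15, adjusted p = 0.610) was -0.01 without replicate 3 and -0.35 without Pjvk-/- replicate 1. Otor lies on the chromosome of Pjvk, 709 measured genes away.

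Of the matrix genes, Emilin2 encodes an elastin-associated glycoprotein of the extracellular matrix (probe set 10452648). Its log2 signals were 10.89, 10.76 and 10.62 in Pjvk-/- arrays and 10.82, 10.81 and 10.67 in Pjvk+/+ arrays. The Pjvk-/- range of 0.27 took in the whole Pjvk+/+ range of 0.15, and the interval of the difference ran from -0.19 to 0.17 around -0.01 (adjusted p = 0.969). With 1 array left out it ran from -0.08 without Pjvk-/- replicate 1 to 0.06 without Pjvk-/- replicate 3. Cemip encodes a protein that takes part in the breakdown of hyaluronan (probe set 10565255). It read 9.14, 9.13 and 9.19 in Pjvk-/- arrays, against 9.18, 9.14 and 9.27 in Pjvk+/+ arrays. Cemip had the narrowest range of the 10 genes, 0.14 over the 6 arrays, and its difference of -0.04 had an interval from -0.18 to 0.09 (adjusted p = 0.775). It was -0.07 without Pjvk+/+ replicate 2 and -0.0067 without Pjvk+/+ replicate 3.

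Both transcription factors of the otic mesenchyme were centred near their Pjvk+/+ level, apart from 1 array. Pou3f4, an X-linked POU domain factor needed for a working ligament in mice, read 9.29, 9.25 and 9.02 in Pjvk-/- arrays (probe set 10601459). The Pjvk+/+ arrays gave 9.28, 9.33 and 9.31, a spread of 0.05 that only Pjvk-/- replicate 3 clearly left. The difference was -0.12 (interval -0.29 to 0.05, adjusted p = 0.535) and -0.04 without replicate 3. Because Pou3f4 is X-linked, the Xist signals are given beside it, 9.77, 9.83 and 9.96 in Pjvk-/- arrays and 9.43, 9.36 and 9.92 in Pjvk+/+ arrays, and their part in the result was not tested.

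Tbx18 encodes a T-box factor that mouse fibrocytes need to differentiate (probe set 10595560). It gave 8.81, 8.77 and 8.54 in Pjvk-/- arrays, against 8.72, 8.67 and 8.76 in Pjvk+/+ arrays. The top 2 signals and the bottom signal were all from Pjvk-/- samples. The difference was -0.01 (interval -0.19 to 0.17, adjusted p = 0.969), and 0.07 without replicate 3.

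The enzyme of the set is Car3, a cytosolic carbonic anhydrase that is also abundant in skeletal muscle and fat (probe set 10490913). Its signals were 10.30, 10.50 and 10.18 in Pjvk-/- arrays and 10.48, 10.42 and 10.33 in Pjvk+/+ arrays, which overlapped widely. The difference was -0.08 (interval -0.28 to 0.11, adjusted p = 0.701), -0.01 without Pjvk-/- replicate 3 and -0.17 without Pjvk-/- replicate 2. The skeletal muscle markers went the other way, with 13 of 15 higher in Pjvk-/- arrays and a mean signal of 6.61 to 6.82 there, against 6.50 to 6.59 in Pjvk+/+ arrays. The 8 adipocyte markers had a mean signal of 5.30 to 5.39 in Pjvk-/- arrays and 5.21 to 5.34 in Pjvk+/+ arrays, with all 8 higher in Pjvk-/- arrays and none past the test. Most of these markers were dim. Of the 15 muscle markers 12 were above the 25th percentile of mean signal and 1 above the median. Of the 8 adipocyte markers 3 and 0 were. The muscle marker above the median was Pvalb, with a difference of -0.06. Among all genes 9194 of 19938 were higher in Pjvk-/- arrays. The median difference was -0.01 over all genes and -0.04 over those at or above the median signal. The part of muscle or fat in the Car3 signal was not tested.

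The anion transport genes had the largest differences of the 10, and neither passed. Slc26a4 encodes pendrin, an anion exchanger of lateral wall epithelium that secretes bicarbonate into endolymph (probe set 10399854). It read 7.29, 7.39 and 7.65 in Pjvk-/- arrays, against 7.79, 7.61 and 7.76 in Pjvk+/+ arrays. Pjvk-/- replicates 1 and 2 lay below all Pjvk+/+ arrays and replicate 3 lay within them, so that the low arrays were not the one that was lowest in most of the other genes. The difference was -0.28 (SE 0.10, interval -0.50 to -0.06, adjusted p = 0.334, exact two-sided permutation p = 0.2). It ran from -0.38 without Pjvk-/- replicate 3 to -0.20 without Pjvk-/- replicate 1, and stayed negative under every alternative tried.

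Slc4a11 encodes a membrane transporter of the bicarbonate transporter family that mouse ligament fibrocytes carry (probe set 10487722). It gave 7.50, 8.26 and 6.91 in Pjvk-/- arrays, against 8.00, 7.97 and 8.59 in Pjvk+/+ arrays. The lowest signal was a Pjvk-/- sample and the highest a Pjvk+/+ sample, but Pjvk-/- replicate 2 exceeded Pjvk+/+ replicates 1 and 2. The range of 1.68 was the widest of the 10 genes, and the SD was 0.68 in Pjvk-/- and 0.35 in Pjvk+/+ arrays (n = 3 each). The mean difference of -0.63, or 1.55-fold lower, had an SE of 0.30, an interval from -1.32 to 0.06, an adjusted p of 0.427 and an exact permutation p of 0.3. It was -0.98 without Pjvk-/- replicate 2, -0.31 without Pjvk-/- replicate 3 and -0.43 without Pjvk+/+ replicate 3. Slc4a11 lies on the chromosome of Pjvk, 649 measured genes away.

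**Figure D2:**
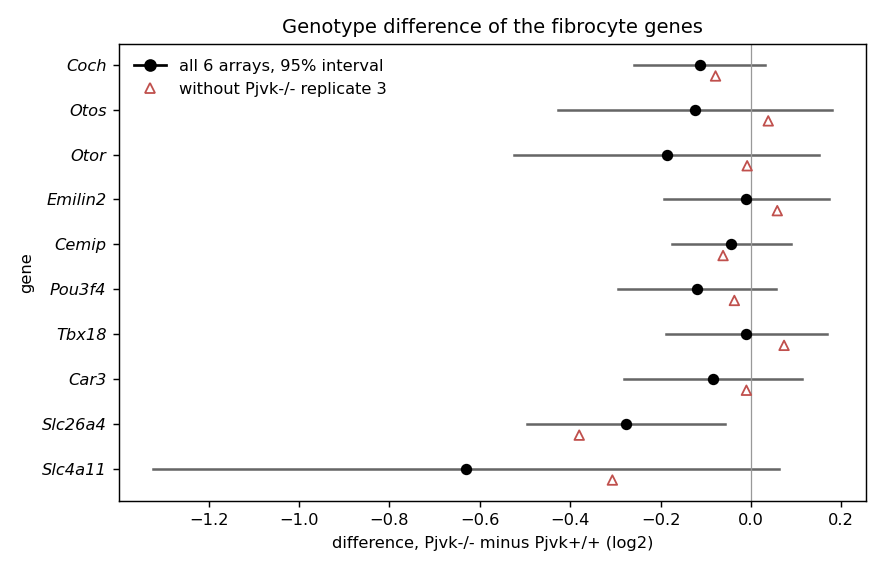
Difference in log2 signal, Pjvk-/- minus Pjvk+/+ (horizontal axis), of each gene over all 6 arrays (black points, with 95% intervals from limma not adjusted for the number of genes) and without Pjvk-/- replicate 3 (open red triangles). The intervals of 9 genes include 0, that of Slc26a4 ends at -0.06, and 6 of the 10 triangles lie nearer to 0 than the points.

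Most of these genes shared their lowest array. Pjvk-/- replicate 3 was the lowest of the 6 arrays for Coch, Otos, Otor, Emilin2, Pou3f4, Tbx18, Car3 and Slc4a11, which is 8 of the 10 genes, while it was the lowest for 18.6% of all genes. The exceptions were Cemip and Slc26a4. As deviations from the mean of the 6 arrays, the 10 genes averaged -0.03, 0.05 and -0.26 in Pjvk-/- replicates 1, 2 and 3, against 0.09, 0.06 and 0.09 in Pjvk+/+ replicates 1, 2 and 3. Without Pjvk-/- replicate 3 the median difference of the 10 genes was -0.02, and 7 of the 10 were lower. The spread within a genotype was wider in Pjvk-/- for 8 of the 10 genes and for 46.1% of all genes, with a median SD over the 10 genes of 0.15 in Pjvk-/- and 0.08 in Pjvk+/+ arrays. Apart from Slc26a4, these 8 were genes with their lowest signal in replicate 3, so the wider spread is not a separate result. Vit, which encodes vitrin, a relative of cochlin, had its lowest signal in the same array, at 7.69 against 8.20 and 8.12 in the other Pjvk-/- arrays and 8.25, 8.14 and 8.15 in Pjvk+/+ arrays. Vit was picked out after its values were seen, and of the 18 hyaluronan, EMILIN and secreted relatives that include it, 4 were lowest in that array.

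Marker lists of other cochlear and carried-along tissues are given beside this pattern. Pjvk-/- replicate 3 was the lowest array for 3 of 14 hair cell markers and 2 of 14 supporting cell markers. Their mean deviations there were -0.02 and 0.01. Bone markers deviated by 0.27, -0.09 and 0.02 in Pjvk-/- arrays and by -0.12, -0.12 and 0.04 in Pjvk+/+ arrays, so their extreme array was Pjvk-/- replicate 1. Of 13 melanocyte markers 6 were higher and 7 lower in Pjvk-/- arrays, and their mean followed Dct, a pigment synthesis gene with a difference of -1.86 (adjusted p = 0.0115). Without Dct the other 12 markers deviated by 0.01, -0.02 and -0.06 in Pjvk-/- arrays, against -0.03, 0.07 and 0.02 in Pjvk+/+ arrays, still lowest in Pjvk-/- replicate 3. Strial marginal and basal cell markers were highest in Pjvk+/+ replicate 3, at 0.13, which was also the array with the highest Slc4a11 signal. That mean rested mostly on Esrrb, Kcne1 and Kcnq1, at 0.40, 0.365 and 0.323 there. Hmx2, Bsnd and Atp1b2 lay below their own means in that array, at -0.175, -0.048 and -0.005. Of the 9 strial markers measured, 5 were higher and 4 lower in Pjvk-/- arrays. The Y-linked genes were lowest in Pjvk-/- replicate 3 too, at -0.28, and the median difference of the 10 fibrocyte genes was 0.04, with 6 of them higher in Pjvk-/-, when the Y-linked level entered the fit as a covariate. The Y-linked level did not overlap between the genotypes, so that covariate is largely confounded with genotype. The part of dissection or sex in the fibrocyte signals was not tested.

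**Figure D3:**
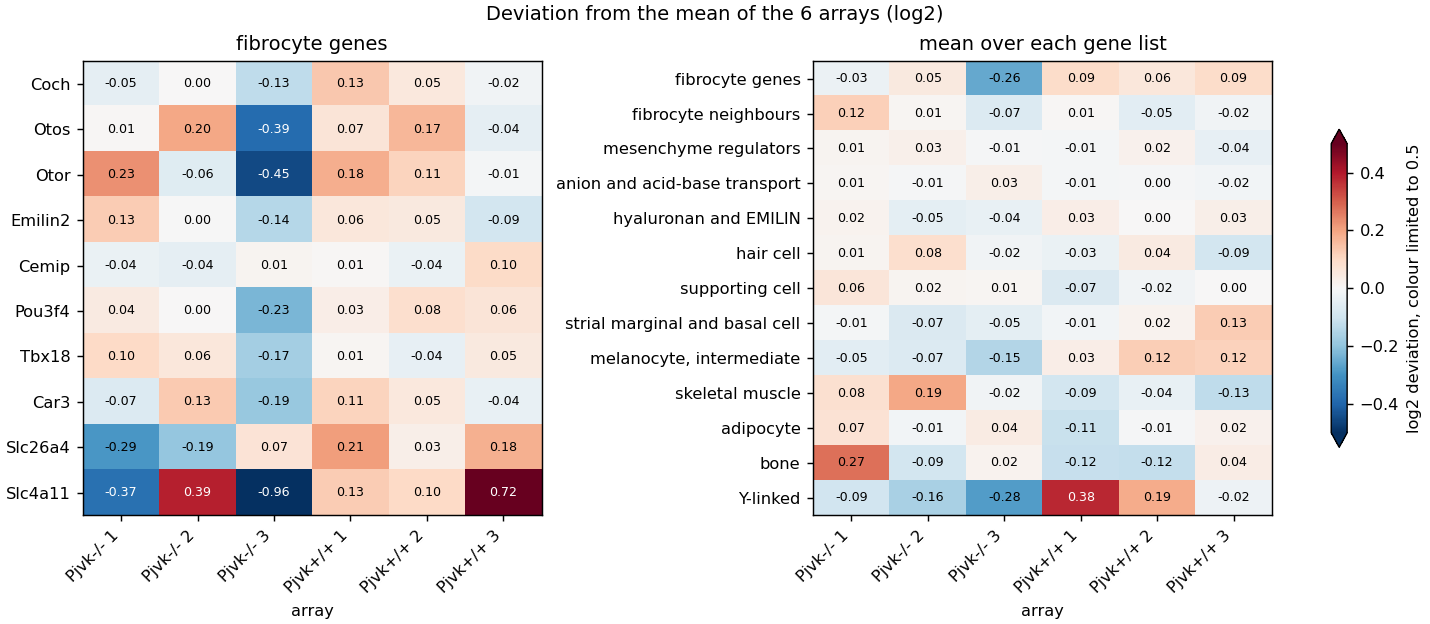
Log2 deviation from the mean of the 6 arrays, by array (columns, Pjvk-/- left of Pjvk+/+), for each fibrocyte gene (left) and as the mean of each gene list (right), where red is above and blue below the mean. In the left panel Pjvk-/- replicate 3 is below the mean in 8 of 10 genes, and its mean over the 10 genes is -0.26.

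Further genes of the same tissue were divided in direction and partly shared the low array. Of 22 further fibrocyte and matrix genes 11 were higher and 11 lower in Pjvk-/- arrays, with a median of 0.00 and none past the adjusted test. Pjvk-/- replicate 3 was the lowest array for 11 of these 22 genes, and their mean deviations were 0.12, 0.01 and -0.07 in Pjvk-/- arrays, against 0.01, -0.05 and -0.02 in Pjvk+/+ arrays. Gja1, which encodes a connexin of gap junctions, read 9.69, 9.09 and 9.55 in Pjvk-/- arrays, against 9.01, 8.98 and 8.95 in Pjvk+/+ arrays. All Pjvk-/- arrays were above all Pjvk+/+ arrays, with a difference of 0.46 (SE 0.13, adjusted p = 0.275). The fibril collagen genes Col9a1, Col11a1 and Col9a2 differed by 0.23, 0.16 and 0.14, with adjusted p-values from 0.419 to 0.501. Most of this came from Pjvk-/- replicate 1, where they deviated by 0.37, 0.275 and 0.235. Their deviations were 0.06, -0.035 and 0.015 in Pjvk-/- replicate 2, and -0.09, -0.005 and -0.045 in Pjvk-/- replicate 3.

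Genes that regulate mesenchyme were mixed as well. Of 21 genes 13 were higher and 8 lower, with a median of 0.04 and no call. The lowest array was Pjvk-/- replicate 3 for 6 of these 21 genes and Pjvk+/+ replicate 3 for another 6. Their mean deviation in Pjvk-/- replicate 3 was -0.006. Tbx15, a T-box factor, differed by 0.31 (SE 0.10, adjusted p = 0.312), and the zinc finger factor genes Snai2 and Osr2 by 0.13 and 0.11. Epha4, a receptor whose gene Pou3f4 controls in the mouse otic mesenchyme, was lower by 0.13 (difference -0.13, SE 0.05, adjusted p = 0.383) and read 8.88, 8.88 and 8.96 in Pjvk-/- arrays, against 9.05, 9.01 and 9.05 in Pjvk+/+ arrays.

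The wider set of anion and acid-base transport genes did not follow Slc26a4 and Slc4a11. Of 33 measured genes 20 were higher and 13 lower, with a median of 0.04, and none was at an unadjusted p under 0.05. The genes nearest to it were Slc26a10 at 0.13, the sodium bicarbonate cotransporter gene Slc4a4 at 0.19, Slc4a10 at 0.14 and the anion transporter gene Slc26a9 at 0.15, with adjusted p-values from 0.413 to 0.464. The lowest array was Pjvk-/- replicate 3 for 6 of the 33 genes, whose mean deviation in that array was 0.03.

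Around Cemip and Emilin2, 18 hyaluronan, EMILIN and related genes were measured, of which 5 were higher and 13 lower, with a median of -0.03 (adjusted call in none). Tnfaip6 encodes a hyaluronan-binding protein that links heavy chains to hyaluronan. It had the smallest p of the 4 wider lists and read 7.22, 7.35 and 7.22 in Pjvk-/- arrays, against 7.70, 7.61 and 7.68 in Pjvk+/+ arrays. The groups lay well apart, with a difference of -0.40 (SE 0.06, adjusted p = 0.105), which passed among genes above the median signal (adjusted p = 0.0195) and with an intensity trend (adjusted p = 0.0174). Over all alternatives its adjusted p ran from 0.0174 to 0.910 and its difference from -0.44 to -0.38. Tnfaip6 lies 135 measured genes from Pjvk on the same chromosome. The hyaluronan receptor gene Cd44 differed by -0.15, the hyaluronidase gene Hyal2 by -0.12 and Vcan, which encodes the hyaluronan-binding proteoglycan versican, by 0.23, with adjusted p-values from 0.470 to 0.523.

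**Figure D4:**
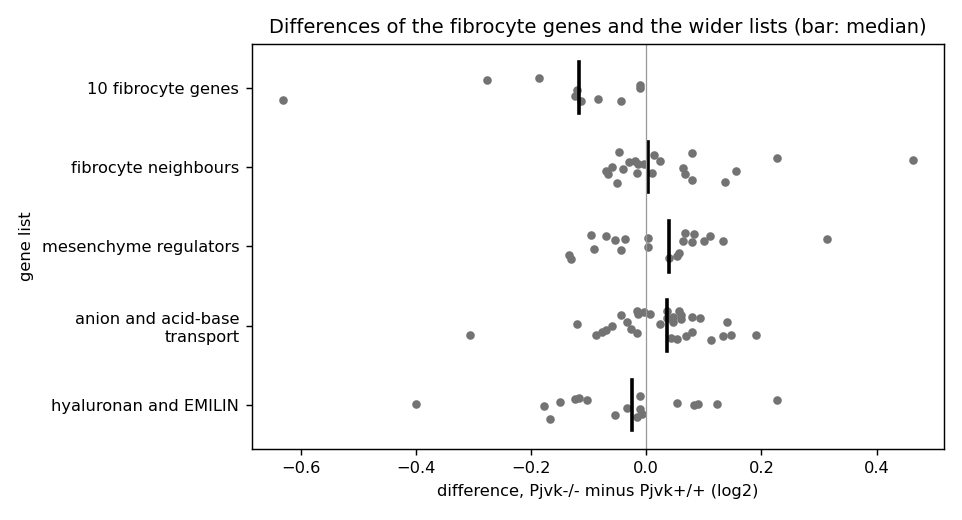
Difference in log2 signal, Pjvk-/- minus Pjvk+/+ (horizontal axis), of each gene (points, spread vertically at random) in the 10 fibrocyte genes and the 4 wider lists, with the median as a black bar. The fibrocyte genes centre on -0.12 and the wider lists between -0.03 and 0.04.

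Genes with the most similar profiles over the 6 arrays were looked up for 3 of the fibrocyte genes, by the root mean square difference of mean-centred log2 signals. Coch was closest to Rbm6 (0.01), Ric8b (0.01) and Kif13b (0.02), among 18390 genes with at least 50% of its SD. Otos was closest to Dpep1 (0.05), 9530077C05Rik (0.05) and Cutal (0.06), among 8130 genes, and Dpep1 read 7.12, 7.19 and 6.58 in Pjvk-/- arrays, against 7.05, 7.15 and 6.94 in Pjvk+/+ arrays, with the same low array as Otos. Slc26a4 was closest to Chst14, Aspa and Vmn2r23 (0.06 each), among 8809 genes. These profiles describe 6 arrays from 2 genotypes. Because the genes were picked by profile, the low array that Dpep1 shares with Otos is not a separate result.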

How the data were processed

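The data were 6 Affymetrix mouse gene ST arrays of organ of Corti at postnatal day 15, made from 100 ng of total RNA each, per the labels' protocols. The authors deposited 1 table of log2 signals for 35557 probe sets. Per the submitters' processing notes, the Affymetrix Expression Console was used, and its summarization and normalization settings are not given in these sources. Because array medians were nearly equal, no further normalization was applied. Of the probe sets, 21789 carried 1 gene symbol in the platform annotation, and 21698 of these matched a RefSeq gene table of GRCm38.p6 by gene identifier, which updated symbols and gave gene order. The probe set with the highest mean was kept for each gene, which left 19938 genes.

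The genotype comparison used limma (version 3.58.1, lmFit and eBayes, under R 4.3.3) with Benjamini-Hochberg adjustment over all genes. There were 4 residual and 4.59 prior degrees of freedom, the median SE was 0.07, and the number of arrays limits the precision. With 3 arrays against 3, an exact two-sided permutation test cannot give a p below 0.1. The fit was tested on simulated data. The 10 genes and the lists were chosen with earlier results of these data known. Always named were the 10 genes and Pjvk, from each wider list the 4 genes with the smallest unadjusted p, and for Coch, Otos and Slc26a4 the 3 genes with the closest profile. The alternatives were other normalizations, filters on dim genes, handling of probe sets, an intensity trend with robust priors, a replicate block, a Y-linked covariate and leaving out each array.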

Additional observations from a re-analysis of the deposited data

How the results depend on the processing

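None of the 10 fibrocyte genes passed the adjusted test under any of the 16 alternatives, where the smallest adjusted p was 0.183 (Slc26a4, genes above the median signal). Pou3f4, Slc26a4 and Slc4a11 stayed negative throughout. Above 0 were Tbx18 with quantile normalization (0.0339), Emilin2 (0.0242), Cemip (0.00105) and Tbx18 (0.0348) with cyclic loess, and, with the Y-linked covariate, Coch (0.0292), Otos (0.119), Otor (0.188), Emilin2 (0.194), Tbx18 (0.0573), Car3 (0.0844) and the median of the 10 genes (0.0433). With 1 array left out, Otos ran from -0.252 to 0.0383, Emilin2 from -0.0767 to 0.0583 and Tbx18 from -0.0617 to 0.0733, and the highest value of each came without Pjvk-/- replicate 3. The genes of the 10 at an unadjusted p under 0.05 numbered 2 with the intensity trend, 0 with the Y-linked covariate and 0 to 1 with 1 array left out. Over all genes, 7 called genes became 18 with centring, all lower, 20 at or above the 25th percentile (2 higher, 18 lower), 45 above the median signal (3 higher, 42 lower), 112 with the intensity trend (12 higher, 100 lower), 0 with the Y-linked covariate, and 2 to 6 with 1 array left out (0 to 1 higher, 2 to 6 lower). Genes at an unadjusted p under 0.05 were 1087 with that covariate and 1646 to 3121 with 1 array left out, against 2471. In the wider lists, 1 gene, Tnfaip6, was called above the median signal and with the intensity trend. Same-numbered arrays correlated by 0.08, 0.02 and -0.01 in their deviations from the group means. These correlations cannot decide whether same-numbered samples were paired, which the labels do not say. With the replicate block 1 gene was called among all genes and 0 of the 10. The causes of these shifts were not tested.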
